A study of Mus musculus with 3 samples.

Results

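The 9 genes described here code for receptors and adhesion molecules that take part in holding neutrophil precursors in the bone marrow, in releasing them and in their adhesion: the chemokine receptors *Cxcr4* and *Cxcr2*, the integrin subunits *Itga4*, *Itgb1*, *Itgam* and *Itgb2*, the adhesion molecule *Vcam1*, the selectin ligand *Selplg* and the growth factor receptor *Csf3r*. They were chosen by name, with earlier results of these data known. They are 9 of the 27998 genes counted in 3 single-cell RNA sequencing libraries. Each library held CD133+ cells sorted by FACS from the bone marrow of C57BL/6 mice, with the cells of 3 mice pooled, and no genetic change or treatment is named in the labels of any of them. The young and the control library carry an age of 3 months in their labels. The old library carries 27 months in its label, while the series text gives 18.5 months for the old mice. That text also calls the sorted cells intestinal, whereas the labels of all 3 libraries give bone marrow. CD133, the product of *Prom1*, is a membrane protein found on several kinds of progenitor cell. Each condition is 1 library of pooled mice, so variation among animals is not known and libraries were compared without a test.

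Neutrophils are made in the bone marrow from promyelocytes, which fill their first granules with myeloperoxidase (*Mpo*), and in later steps they make specific and gelatinase granules, whose late genes include *Retnlg* and *Mmp8*. CXCR4 binds the chemokine CXCL12 of marrow stromal cells and holds neutrophils in the marrow, while CXCR2 binds chemokines such as CXCL1 and CXCL2 that draw mature neutrophils into the blood. G-CSF, the ligand of CSF3R, drives both neutrophil production and release. Integrin α4β1 (*Itga4* and *Itgb1*) binds VCAM-1 in the marrow, and αMβ2 (*Itgam* and *Itgb2*, known as Mac-1 or CD11b/CD18) and PSGL-1 (*Selplg*) serve adhesion to the vessel wall at sites of inflammation.

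The 3 matrices held 108985799 UMIs in 10869 control cells, 81434722 UMIs in 8362 young cells and 138030352 UMIs in 10597 old cells. A UMI (unique molecular identifier) marks 1 captured mRNA molecule, so PCR copies are counted once. After filters on cell quality and after cells with 3 or more markers of another blood lineage were set aside (117 control, 908 young and 110 old cells), the remaining cells were put into 5 bands by their UMIs of *Mpo* and of *Retnlg* plus *Mmp8* per 10000 UMIs of the cell. Band 1 had *Mpo* at 50 or more, band 2 at 10 to 50 and band 3 below 10, all with *Retnlg* plus *Mmp8* below 5. Bands 4 and 5 had *Mpo* below 10 and *Retnlg* plus *Mmp8* at 5 to 50 and at 50 or more. The bands 1 to 5 held 9595 control cells, 6071 young cells and 8836 old cells, and the smallest band had 201 cells. In these cells *Prom1* lay between 43.9 and 52.9 UMIs per 1000000 UMIs (CPM). The endothelial gene *Cdh5* lay between 0 and 0.196 CPM, and a list of 7 endothelial markers summed to between 0.0745 and 0.736 CPM, with 1 to 3 of its genes at 0. Of 88 markers of other lineages, 2 in young, 13 in control and 19 in old were at 0 in the banded cells, and their summed level was 887, 718 and 439 CPM, of which the NK and T list made up 689, 648 and 384 CPM. *Retnlg* was also counted in band 1, at 123 CPM in control, 264 CPM in young and 293 CPM in old. Band 1 took only cells with *Retnlg* plus *Mmp8* below the lower limit of band 4, so the rule itself caps this level. How many cells passed that limit without making *Retnlg* is thus not known, and the sizes of bands are not read as a result.

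Promoter sequence of 6 of the 9 genes was found in RefSeq (GRCm38.p6), and 4 are shown because they are the receptor pair and 1 integrin gene that rose and 1 that fell along the bands. *Vcam1*, *Selplg* and *Itgb2* had no entry. Each run is the 250 bases before the start site, 5′ to 3′ on the strand of the gene. The windows are chr1:128592300-128592549 on the minus strand for *Cxcr4*, chr1:74153744-74153993 on the plus strand for *Cxcr2*, chr7:128062390-128062639 on the plus strand for *Itgam* and chr2:79255176-79255425 on the plus strand for *Itga4*. Capitals mark matches to GAGGAA (or TTCCTC on the other strand), the core bound by PU.1, and to TTNCNNAA (or TTNNGNAA), a relaxed form of the site bound by C/EBP factors.
Cxcr4: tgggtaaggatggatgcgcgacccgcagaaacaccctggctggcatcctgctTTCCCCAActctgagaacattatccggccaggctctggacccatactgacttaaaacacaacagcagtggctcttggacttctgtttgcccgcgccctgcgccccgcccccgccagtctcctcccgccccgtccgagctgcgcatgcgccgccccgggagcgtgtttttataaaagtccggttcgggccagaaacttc
Cxcr2: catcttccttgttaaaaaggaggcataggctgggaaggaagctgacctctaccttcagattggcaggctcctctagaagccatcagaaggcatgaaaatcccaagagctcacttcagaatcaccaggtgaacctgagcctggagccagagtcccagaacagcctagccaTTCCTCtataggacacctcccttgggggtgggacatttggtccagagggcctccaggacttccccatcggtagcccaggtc
Itgam: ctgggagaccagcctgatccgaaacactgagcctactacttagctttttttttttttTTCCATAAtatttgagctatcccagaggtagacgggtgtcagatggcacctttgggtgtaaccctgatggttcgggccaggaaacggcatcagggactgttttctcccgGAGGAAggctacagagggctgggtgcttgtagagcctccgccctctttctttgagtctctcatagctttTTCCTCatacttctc
Itga4: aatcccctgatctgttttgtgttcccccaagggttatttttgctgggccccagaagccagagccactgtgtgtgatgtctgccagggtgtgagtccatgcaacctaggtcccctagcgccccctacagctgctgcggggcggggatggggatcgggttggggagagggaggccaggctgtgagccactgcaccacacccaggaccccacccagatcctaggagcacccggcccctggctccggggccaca
The *Itgam* window held 2 matches to GAGGAA and 1 to TTNCNNAA, the *Cxcr2* window 1 match to GAGGAA, the *Cxcr4* window 1 match to TTNCNNAA, and the *Itga4* window no match to either. Of 32851 promoters of the same length, 23.3% held GAGGAA and 36.8% TTNCNNAA, so such matches are common and none is taken as a site. The *Cxcr4* window had 19 CpG dinucleotides and 61.2% G or C, whereas the *Cxcr2* window had 1 CpG and 54.4% G or C. The median promoter had 6 CpG and 52.4% G or C.

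The first comparison asks how the 9 genes differ between the bands, which stand in for steps of neutrophil differentiation. The bands rest on *Mpo*, *Retnlg* and *Mmp8* alone, and band 3 is defined only by low levels of these genes. Levels of other neutrophil genes in the bands are not given here, and that the bands follow one another as steps was not tested. Sums of UMIs per band and library were compared by the quasi-likelihood test of edgeR with the library as a term, and a gene was called where the adjusted p was below 0.05 and the difference at least 1.5 times. From band 1 to band 3, *Cxcr2*, *Selplg*, *Itgam* and *Itgb2* were called higher and *Itga4* and *Vcam1* lower. Beside these 4 and 2 of 9 genes, 24.5% of all 10588 genes tested were called higher and 24.6% lower. From band 3 to band 5, *Cxcr4*, *Cxcr2*, *Selplg*, *Csf3r*, *Itgam* and *Itgb2* were called higher and *Itgb1* and *Vcam1* lower. Beside these 6 and 2 of 9 genes, 19.2% of the genes tested were called higher and 19.3% lower. These are 4078 genes in all, and 2471 were called in this step without the old library, which held 1030 of the cells of band 5. Calls were thus frequent among all genes, and whether these 9 were called more often than other genes was not tested. The median log2 fold of the 9 genes was 0.55 between bands 1 and 3 and 0.83 between bands 3 and 5, beside 0.04 and -0.07 over all genes tested.

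These folds depend on how the sums are scaled, and the reason was not tested. With TMM factors, which centre most genes near 0, the calls among all genes were split evenly. With library sizes alone, the median gene fell by 0.56 on the log2 scale from band 1 to band 3 and by 0.40 from band 3 to band 5, and 17.3% and 26.0% of the calls were higher, against 49.9% and 49.8% with TMM factors. On that scale 3 of the 9 genes were called higher and 4 lower in the first step, and 4 higher and 2 lower in the second. Beside these, 1063 of all 10588 genes tested were called higher and 5082 lower in the first step, and 1245 and 3547 in the second. The rise of *Cxcr2* and *Itgam* in both steps, of *Itgb2* in the first, and of *Selplg* and *Csf3r* in the second was called with either scaling, as was the fall of *Vcam1* in both steps, of *Itga4* in the first and of *Itgb1* in the second. The calls of *Selplg* in the first step and of *Cxcr4* and *Itgb2* in the second were made with TMM factors but not with library sizes alone. The levels below are CPM and so follow the second scale. The 3 libraries, which differ in condition, stand as the replicates of these tests. With the library as a term, the p-values measure how far the differences between bands vary from library to library. They do not measure the spread in level between libraries, and all bands share the same estimate of spread.

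**Figure D1:**
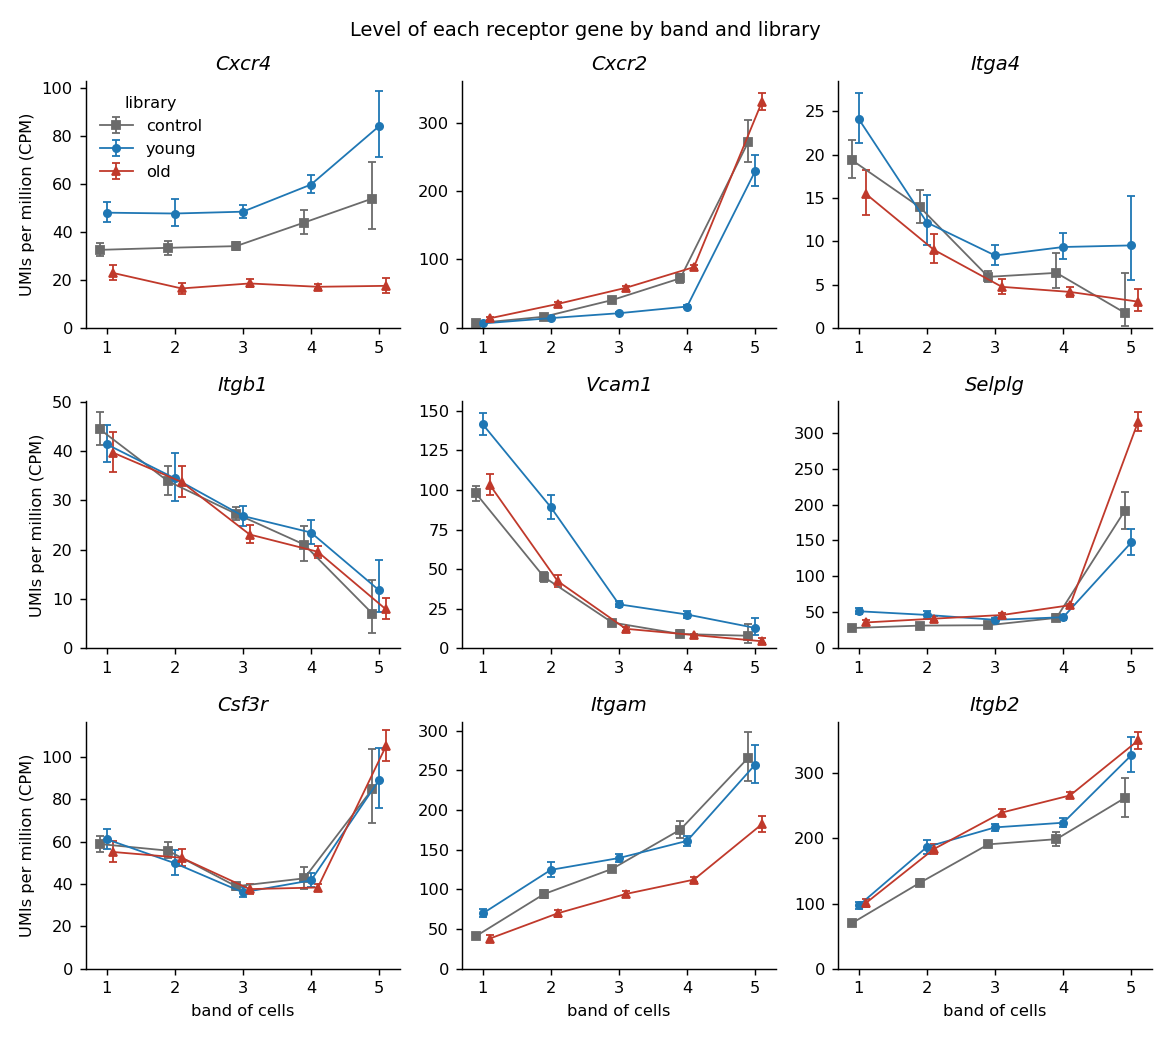
Level of each of the 9 genes in UMIs per 1000000 UMIs (linear axes from 0) in bands 1 to 5 of the control, young and old libraries. Points are sums over the cells of a band and bars are exact 95% Poisson intervals, which cover counting error only; *Cxcr2* rises along the bands in each library, *Vcam1* falls, and *Cxcr4* of the old library lies below the other libraries in every band.

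*Cxcr4* (ENSMUSG00000045382), the receptor for CXCL12, lies on chromosome 1 of GRCm38 from 128588199 to 128592293 on the minus strand, and no other annotated gene overlaps it. Its level in bands 1 to 5 of the control library was 32.5, 33.4, 34.1, 43.9 and 53.9 CPM. In young it was 48.0, 47.7, 48.4, 59.7 and 84.0 CPM. In old it was 22.9, 16.4, 18.5, 17.1 and 17.5 CPM. The level thus stayed near its starting value up to band 3 in control and young and was highest in band 5, whereas in old it was highest in band 1. The fitted log2 fold was 0.55 (SE 0.13, adjusted p = 0.000735) from band 1 to band 3, below the limit of 1.5 times, and *Cxcr4* rose by 0.74 (SE 0.16, adjusted p = 0.000523) from band 3 to band 5. With library sizes alone the values were -0.05 and 0.44, neither past the limit. The call in the second step was also lost without the young library, where the log2 fold was 0.55, and without the library term (0.81, adjusted p = 0.283). Within each library, band 5 had 1.66 times the CPM of band 1 in control (log2 0.73, 95% interval 0.32 to 1.11), 1.75 times in young (0.81, 0.54 to 1.07) and 0.767 times in old (-0.38, -0.71 to -0.06). The difference in direction between old and the other libraries was not tested. It is a difference in CPM, a scale on which the median gene falls along the bands, and it was not computed with TMM factors.

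*Cxcr2* (ENSMUSG00000026180), the receptor for the chemokines that call neutrophils into the blood, lies on chromosome 1 from 74153989 to 74161246 on the plus strand with no overlapping gene. In bands 1 to 5 of control it had 6.83, 16.4, 40.7, 72.5 and 272 CPM. In young it had 6.54, 14.4, 21.5, 31.3 and 229 CPM. In old it had 14.0, 35.0, 58.6, 88.8 and 330.5 CPM. The order of the bands was the same in the 3 libraries, with each band above the one before. *Cxcr2* rose by 2.74 on the log2 scale (SE 0.19, adjusted p = 1.33e-10) from band 1 to band 3 and by 3.14 (SE 0.16, adjusted p = 8.67e-12) from band 3 to band 5, the highest value among the 9 genes in each step. Part of the level in band 1 can be free RNA. If all *Retnlg* counted in band 1 had come from cells like those of band 5, the same source would give 2.15, 3.87 and 5.90 CPM of *Cxcr2* in control, young and old. The banding rule itself limits *Retnlg* in band 1, so these values can be too low. After each cell was thinned to 3000 UMIs, 1.31% of band 1 cells (exact 95% interval 0.681 to 2.28) and 44.8% of band 5 cells (39.1 to 50.6) of the young library had a *Cxcr2* UMI. In the 92 B-like cells of that library, which should lack the gene, the share was 3.26% (0.678 to 9.23), and the share in band 1 did not exceed it and is not read as expression. The same interval also covers the young shares of 3.97% in band 2, 5.77% in band 3 and 8.94% in band 4. The 92 cells are thus too few to place these bands above them. The band 1 shares of control and old, 2.54% and 3.89%, were not compared with B-like cells. The B-like cells had 676 CPM of *Retnlg*, beside 264 CPM in band 1 of young. Band 1 took only cells below a limit of *Retnlg* plus *Mmp8*, and the B-like cells had no such limit. The banding rule can thus give this difference by itself, and no conclusion is drawn from it. Unthinned, the young shares were 7.45% in band 1, 67.2% in band 5 and 8.70% in the B-like cells. The median was 12388, 4669 and 9271.5 UMIs per cell.

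The number of *Cxcr2* UMIs per *Cxcr4* UMI in the same cells does not depend on how the library is scaled. In the control library this ratio went from 0.210 in band 1 to 1.195 in band 3 and 5.05 in band 5 (95% interval 3.83 to 6.76). In young it went from 0.136 to 0.444 and 2.73 (2.26 to 3.31). In old it went from 0.612 to 3.16 and 18.8 (15.8 to 22.6). The ratio of the old library lay above those of control and young in each of the 5 bands, and its interval did not overlap theirs in any band. The intervals of control and young, which share a labelled age, did not overlap in bands 2 to 5 either. In band 4 the ratio was 1.65 (1.42 to 1.92) in control, 0.523 (0.469 to 0.584) in young and 5.18 (4.82 to 5.58) in old. These intervals cover counting error only, and how many other gene pairs differ as much was not counted. The band 1 ratios include the possible free *Cxcr2* RNA given above. It was put at 5.90 of 14.0 CPM in old, 2.15 of 6.83 CPM in control and 3.87 of 6.54 CPM in young. The ratio is used to compare bands and libraries and not the amounts of both receptors, since the share of each mRNA that is captured is unknown.

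**Figure D2:**
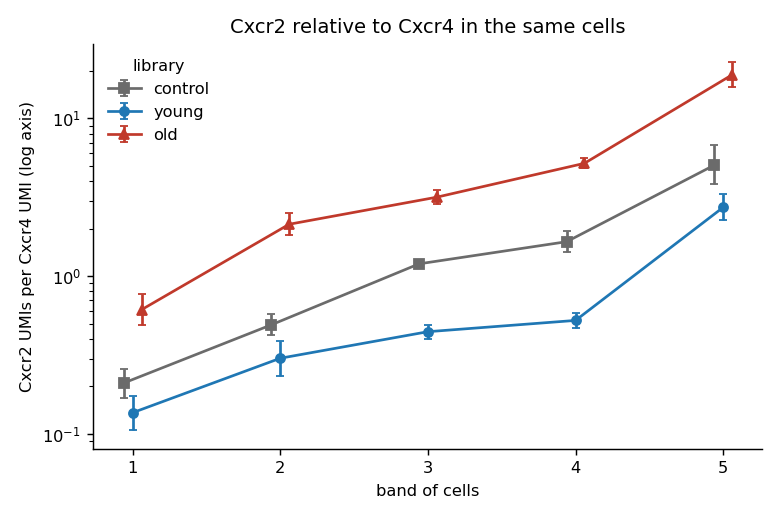
*Cxcr2* UMIs per *Cxcr4* UMI (log axis) in bands 1 to 5 of the control, young and old libraries, with exact 95% intervals that cover counting error only. In band 5 the ratio is 5.05 in control, 2.73 in young and 18.8 in old, and the old library is highest in every band.

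*Itga4* (ENSMUSG00000027009) codes for the α4 subunit of the receptor for VCAM-1, on chromosome 2 from 79255426 to 79333123 on the plus strand. The gene *Cerkl* overlaps its end on the other strand, and whether reads were counted by strand is not given in the sources used here. In bands 1 to 5 it had 19.4, 13.9, 5.89, 6.36 and 1.77 CPM in control. The young values were 24.1, 12.2, 8.36, 9.34 and 9.52 CPM, and the old values 15.5, 9.03, 4.74, 4.16 and 3.03 CPM. The level fell in each library over the first 3 bands. *Itga4* fell by 1.05 on the log2 scale (SE 0.14, adjusted p = 1.39e-06) from band 1 to band 3, while its fold from band 3 to band 5 was -0.07 (SE 0.28, adjusted p = 0.853). The band 5 value of control rests on 2 UMIs.

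*Itgb1* (ENSMUSG00000025809), the β1 subunit that pairs with α4, lies on chromosome 8 from 128685654 to 128733200 on the plus strand with no overlapping gene. Its CPM in bands 1 to 5 was 44.4, 33.9, 27.3, 21.04 and 7.07 in control. It was 41.4, 34.5, 26.8, 23.5 and 11.8 in young and 39.6, 33.7, 23.1, 19.6 and 7.91 in old. The level fell with every band in each library. The log2 fold from band 1 to band 3 was -0.11 (SE 0.08, adjusted p = 0.262), and with library sizes alone it was -0.70 and was called lower. From band 3 to band 5 *Itgb1* fell by 1.19 (SE 0.15, adjusted p = 1.74e-06).

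*Vcam1* (ENSMUSG00000027962), which codes for the ligand of α4β1 and is best known on endothelial and stromal cells, lies on chromosome 3 from 116109949 to 116129688 on the minus strand, with the antisense gene *Gm43109* over its start. In bands 1 to 5 it had 97.8, 45.0, 16.3, 9.08 and 7.95 CPM in control. In young it had 141, 89.1, 27.8, 21.4 and 12.9 CPM. In old it had 103, 42.5, 12.4, 8.41 and 4.48 CPM. It was thus highest in the cells with the most *Mpo*, while *Cdh5* had 0 UMIs in band 1 of each library. *Vcam1* fell by 2.06 on the log2 scale (SE 0.13, adjusted p = 2.87e-11) from band 1 to band 3 and by 1.02 (SE 0.25, adjusted p = 0.00197) from band 3 to band 5. If all *Mpo* counted in band 5 had come from cells like those of band 1, the same source would give 4.27, 5.26 and 4.01 CPM of *Vcam1* in control, young and old, so the level of 4.48 CPM in old is close to what free RNA alone could give. Band 5 took only cells with *Mpo* below a limit, so the values for free RNA can be too low. The call from band 3 to band 5 was lost without the library term.

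*Selplg* (ENSMUSG00000048163) codes for PSGL-1, the main ligand of P-selectin on leukocytes, on chromosome 5 from 113818536 to 113832644 on the minus strand with no overlapping gene. Along the 5 bands it had 28.3, 31.7, 32.2, 42.4 and 190.8 CPM in control. In young it had 51.6, 46.5, 39.7, 43.3 and 147 CPM. In old it had 36.0, 41.3, 46.4, 60.0 and 315 CPM. Band 5 stood well above the 4 earlier bands in each library. *Selplg* rose by 2.79 on the log2 scale (SE 0.20, adjusted p = 6.71e-10) from band 3 to band 5. Its fold from band 1 to band 3 was 0.62 (SE 0.19, adjusted p = 0.00643), just past the limit, and it was not called with library sizes alone (0.02), with DESeq2 in place of edgeR (0.54), with the size factors of DESeq2 within edgeR (0.53), without the control library (0.55), without the old library (0.46), with an *Mpo* limit of 25 for band 1 (0.54) or with cells thinned to 3000 UMIs (0.57). It was also not called without the library term (0.63, adjusted p = 0.105). In young the CPM of band 3 was 0.770 times that of band 1 (log2 -0.38, 95% interval -0.53 to -0.23), and in control and old it was 1.14 and 1.29 times. Cells of other lineages also carried *Selplg*, at 456 CPM in the 395 monocyte-like cells set aside from young.

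*Itgam* (ENSMUSG00000030786) codes for CD11b, a classical surface marker of myeloid cells, on chromosome 7 from 128062640 to 128118491 on the plus strand. The files give its symbol to a second identifier as well, ENSMUSG00000108596, which GENCODE M21 names *Gm49368* and places over the same region on the same strand, from 128062683 to 128128160. That identifier held 3.32%, 3.19% and 3.58% of the UMIs of the pair in control, young and old, and the summed level of the pair was 116, 139 and 105 CPM. Along the 5 bands *Itgam* had 41.1, 94.1, 126, 175 and 266 CPM in control. In young it had 69.7, 125, 139, 161 and 257 CPM. In old it had 37.9, 69.8, 94.2, 112 and 182 CPM. The level rose with every band in each library. *Itgam* rose by 1.89 on the log2 scale (SE 0.12, adjusted p = 7.15e-11) from band 1 to band 3 and by 1.26 (SE 0.12, adjusted p = 6.68e-08) from band 3 to band 5.

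*Itgb2* (ENSMUSG00000000290), the β2 subunit CD18 shared by the leukocyte integrins, lies on chromosome 10 from 77530252 to 77565708 on the plus strand with no overlapping gene. In bands 1 to 5 it had 70.0, 132, 190.6, 199 and 261 CPM in control. In young it had 97.1, 187, 217, 224 and 327 CPM. In old it had 100.4, 183, 239, 266 and 349.8 CPM. It rose by 1.88 on the log2 scale (SE 0.09, adjusted p = 9.45e-13) from band 1 to band 3 and by 0.83 (SE 0.09, adjusted p = 3.09e-07) from band 3 to band 5. With library sizes alone the second value was 0.53 and below the limit. The 2 subunits of Mac-1 therefore rose in the first step by a like amount, 1.89 and 1.88, and their difference was not tested.

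*Csf3r* (ENSMUSG00000028859), the receptor for G-CSF, lies on chromosome 4 from 126024550 to 126044440 on the plus strand with no overlapping gene. Along the 5 bands it had 58.9, 55.8, 39.0, 42.7 and 84.8 CPM in control. In young it had 61.2, 49.9, 36.1, 41.7 and 89.1 CPM. In old it had 55.1, 52.4, 37.6, 38.4 and 105 CPM. The level was lowest in band 3 and highest in band 5 in each library. The fitted log2 fold from band 1 to band 3 was -0.04 (SE 0.10, adjusted p = 0.711) with TMM factors and -0.64 with library sizes alone, where it was called lower. From band 3 to band 5 *Csf3r* rose by 1.67 (SE 0.11, adjusted p = 2.53e-10).

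**Figure D3:**
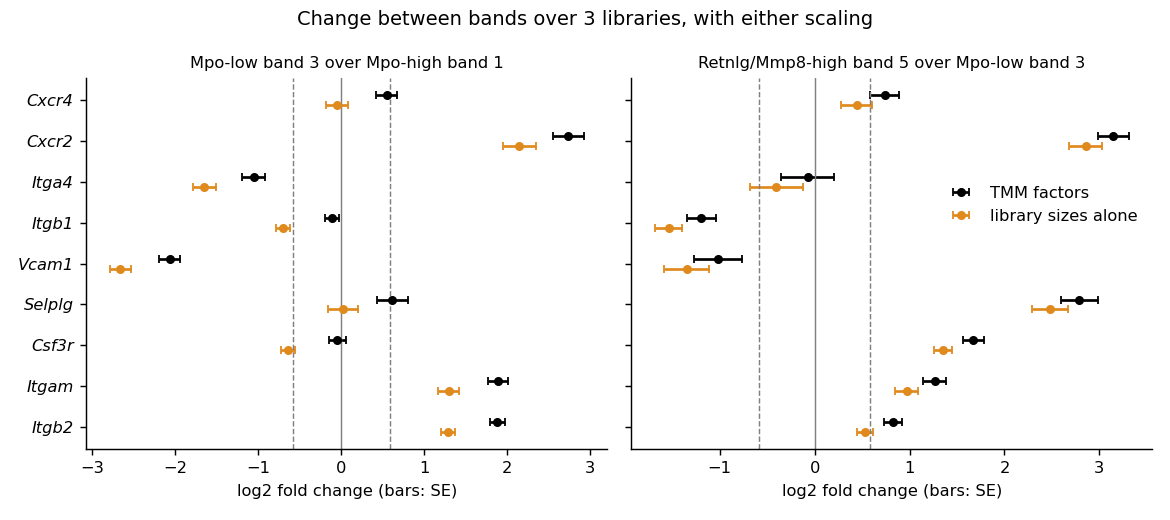
Log2 fold change of the 9 genes from band 1 to band 3 (left) and from band 3 to band 5 (right), fitted over the 3 libraries by edgeR with TMM factors (black) or with library sizes alone (orange). Bars are standard errors and dashed lines mark 1.5 times. *Cxcr2* has the highest value in both panels, and *Vcam1* lies below 0 with either scaling.

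The second comparison asks how the 9 genes differ between the libraries. Pooled ratios also depend on how the cells were spread over the bands. Band 4 held 4278 of 8836 cells in old, 1867 of 6071 in young and 927 of 9595 in control. Band 5 held 1030, 299 and 201. The part of this spread in the pooled ratios was not tested, and ratios within the bands are given below. The cells of some bands also differed between libraries in the genes that define the band. In band 1 *Mpo* had 7624 CPM in old, 8552 in control and 9800 in young, while in band 2 it had 2546, 2579 and 2567. In band 4 *Retnlg* had 1035, 889 and 787 CPM. Ratios within bands and with equal weights can thus still hold differences in where cells lie within a band, and this was not tested. Over all cells of bands 1 to 5, *Cxcr2* and *Selplg* were at least 1.5 times higher in old than in young, and *Cxcr4*, *Itga4* and *Vcam1* at least 1.5 times lower. Beside these 2 and 3 of 9 genes, 5.11% and 10.0% of the 5535 genes that reached 10 CPM in one of both libraries were that much higher or lower. Against control, *Cxcr2* and *Selplg* were again higher in old and *Cxcr4* and *Vcam1* lower, beside 5.56% and 11.4% of 5453 genes. These 4 genes passed the limit in the same direction against both 3-month libraries, as did 3.68% (higher) and 4.49% (lower) of 5327 genes. The control and young libraries share an age in their labels, and 0 of the 9 genes was at least 1.5 times higher in control than in young and 2, *Cxcr4* and *Vcam1*, at least 1.5 times lower, beside 3.81% and 3.56% of 5538 genes. The comparisons share libraries and are not independent of each other. With 1 library per condition no p-value was computed, and the intervals below are exact and cover counting error only.

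**Figure D4:**
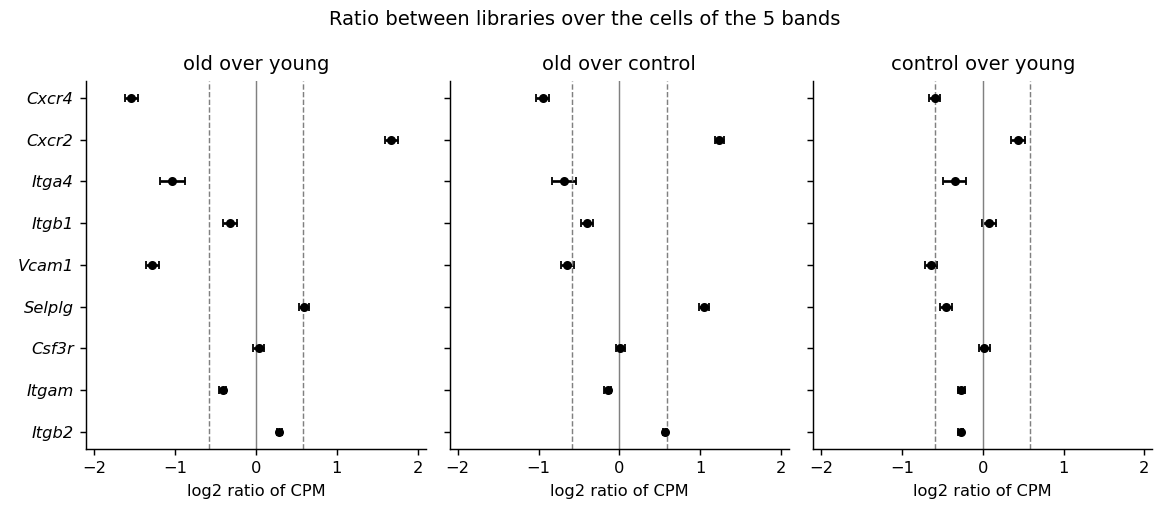
Log2 ratio of the CPM of each gene over the cells of bands 1 to 5, for old over young, old over control and control over young. Bars are exact 95% intervals for counting error and dashed lines mark 1.5 times. *Cxcr4* lies below the left dashed line in all 3 panels, while *Cxcr2* lies beyond the right one in both panels of the old library.

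*Cxcr4* had 34.6 CPM in control, 52.3 CPM in young and 17.9 CPM in old. The old level was 0.343 times the young level (log2 -1.54, 95% interval -1.63 to -1.46) and 0.518 times the control level (-0.95, -1.03 to -0.87). The control level was 0.662 times the young level (-0.60, -0.67 to -0.52), so the 2 libraries of the same labelled age differed as well. Within the bands the log2 ratio of old to young ran from -1.07 in band 1 to -2.26 in band 5, and that of old to control from -0.51 to -1.62, and each of these 10 intervals lay below 0. Control was below young in 5 of 5 bands as well, with each interval below 0. These intervals cover counting error only, and the share of all genes with every interval on the same side of 0 was not counted. With the 5 bands weighted equally the ratios of old were -1.64 and -1.10, farther from 0 than the pooled ratios.

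*Cxcr2* had 36.2 CPM in control, 26.7 CPM in young and 85.3 CPM in old. The old level was 3.20 times that of young (log2 1.68, 1.60 to 1.75) and 2.36 times that of control (1.24, 1.18 to 1.30), and control over young was 1.35 times (0.44, 0.35 to 0.52). The old library was the highest in every band. Its log2 ratios to young lay between 0.53 in band 5 and 1.51 in band 4, and those to control between 0.28 in band 5 and 1.10 in band 2. Control was above young in 5 of 5 bands, with 3 intervals above 0, by 0.92 in band 3 and 1.21 in band 4. In these 2 bands old was above control by less, 0.52 and 0.29. In bands 1, 2 and 5 old was above control by more than control was above young. With the bands weighted equally, the ratio of old to young was 0.80 and that of old to control 0.37, the latter below 1.5 times. The pooled ratios of 1.68 and 1.24 were larger than those with equal weights.

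*Selplg* had 34.0 CPM in control, 46.6 CPM in young and 70.3 CPM in old. The old level was 1.51 times that of young (0.59, 0.53 to 0.66) and 2.07 times that of control (1.05, 0.99 to 1.11). The ratio of old to young changed along the bands, from -0.52 (-0.72 to -0.32) in band 1 to 1.10 (0.91 to 1.29) in band 5, while that of old to control was above 0 in 5 of 5 bands. The value against young also depended on the cells of other lineages, since with these cells kept it was -0.10. Young had 296.5 CPM of *Selplg* in the 908 cells set aside.

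*Vcam1* had 33.7 CPM in control, 52.4 CPM in young and 21.5 CPM in old. The old level was 0.411 times that of young (-1.28, -1.36 to -1.20) and 0.64 times that of control (-0.64, -0.72 to -0.57), and control was 0.643 times young (-0.64, -0.71 to -0.57). Within the bands old was below young in 5 of 5, but against control only band 3 had an interval below 0, and with the bands weighted equally the ratio to control was -0.04. Young stood above both other libraries in each band. *Itga4* had 9.36, 11.9 and 5.80 CPM in control, young and old, with a log2 ratio of -1.04 (-1.19 to -0.88) against young and -0.69 (-0.84 to -0.54) against control. The latter is not counted above because neither library reached 10 CPM. With the cells of other lineages kept, the ratio of *Itga4* to young was -1.57. Among the lineages read apart in young, *Itga4* ran from 20.3 CPM (basophil- and mast-like cells) to 71.1 CPM (B-like cells). Whether such cells remain in the bands of young was not tested.

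The other 4 genes stayed below 1.5 times in each pooled comparison of CPM, with *Itgb2* of old over control closest to the limit (0.56, 0.53 to 0.59). That ratio passed the limit with UMIs per cell (0.83) and with TMM-scaled CPM (0.72). *Itgb1* had 30.5, 28.9 and 23.1 CPM in control, young and old, and *Csf3r* had 45.7, 45.0 and 46.1 CPM. The log2 ratio of *Csf3r* was 0.03 (-0.03 to 0.10) against young and 0.01 (-0.05 to 0.07) against control, the smallest differences among the 9 genes. *Itgam* had 112, 134 and 101 CPM, and *Itgb2* 163, 197 and 241 CPM. Within the bands *Itgam* of old was below young in 5 of 5 and below control in 5 of 5. The log2 ratios lay between -0.88 and -0.12, with 9 of 10 intervals below 0. The share of all genes with as many such intervals was not counted. With UMIs per cell, the pooled ratio of *Itgam* was -0.14 to young and 0.12 to control, so the direction against control depended on the scale. The other subunit of Mac-1, *Itgb2*, was above control in 5 of 5 bands, by 0.33 to 0.52, while its log2 ratio to young lay between -0.03 and 0.25. With the bands weighted equally the ratio of *Itgam* to young was -0.60, past 1.5 times.

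**Figure D5:**
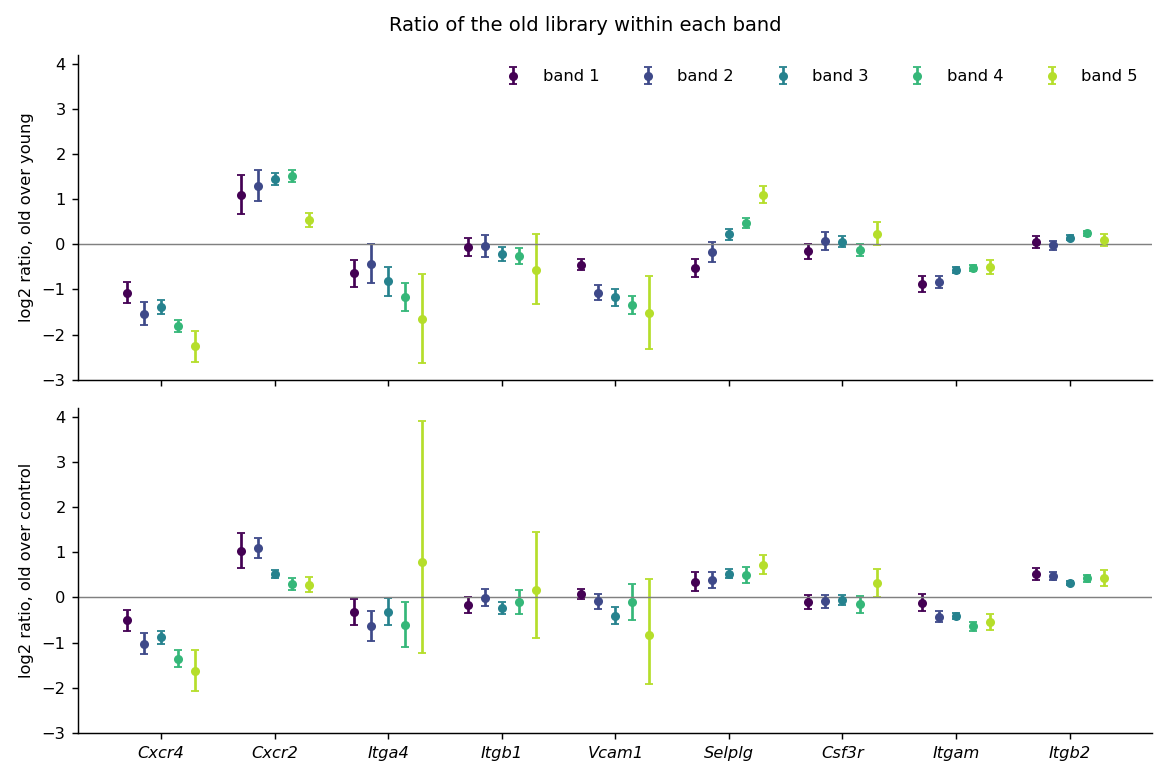
Log2 ratio of each gene within bands 1 to 5 (dark to light) for old over young (top) and old over control (bottom), with exact 95% intervals for counting error. *Cxcr4* lies below 0 and *Cxcr2* above 0 in every band of both panels, whereas *Selplg* against young runs from -0.52 in band 1 to 1.10 in band 5.

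Besides the spread of cells over the bands, several other measures differed between the libraries, and their part in the results was not tested. The median UMI count of the banded cells was 12473 in old, 9794 in control and 10150 in young. The level of *Retnlg* in band 1 was 293 CPM in old, 264 CPM in young and 123 CPM in control, and cells of other lineages made up 12.2% of the filtered cells in young beside 1.19% in control and 1.15% in old. Over all genes the median log2 ratio of old was -0.08 to young and -0.12 to control, and with UMIs per cell in place of CPM it was 0.19 and 0.15. On that scale the ratios of *Cxcr4* were -1.27 and -0.68 and those of *Cxcr2* 1.95 and 1.503. TMM-scaled CPM gave a median of 0.11 and 0.04 over all genes.

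Genes of the same pathways were read from lists without the 9 genes, also chosen with earlier results of these data known. Their counts and medians are to be read beside those of all genes. With TMM factors 24.5% of all genes were called higher and 24.6% lower from band 1 to band 3 (median log2 fold 0.04). From band 3 to band 5 these shares were 19.2% and 19.3% (median -0.07). With library sizes alone 1063 of 10588 genes were called higher and 5082 lower in the first step, and 1245 and 3547 in the second. Among 14 genes of integrin activation, such as talin, kindlin and the small GTPases of the Rap family, 9 were called higher and 0 lower from band 1 to band 3 with a median of 0.71, led by *Vcl* (vinculin) at 1.66. With library sizes alone 1 was called higher and 1 lower. In the next step 6 were called higher and 0 lower, led by *Rassf5* at 1.67 (median 0.26), and 1 with library sizes alone. Of 12 tested genes of receptor regulation (arrestins, receptor kinases and G protein subunits), 9 were called higher and 1 lower from band 1 to band 3, with *Arrb2* (β-arrestin 2) at 1.80 and *Adrbk2* at -1.02, and 3 and 2 with library sizes alone. From band 3 to band 5, 5 were called higher and 0 lower, led by *Rgs2* at 1.46, and 2 were called higher with library sizes alone. The medians of this list were 0.92 and 0.47. With the UMIs of the 3 libraries added, *Adrbk2* had 6.74 CPM in band 1 and 2.27 CPM in band 3.

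Of 15 other chemokine and sphingosine phosphate receptors, 4 were tested, and 2 were called higher in each step with either scaling. *Ccr1*, a receptor for CCL3 and CCL5, had the highest values, 3.04 and 2.22, and *Cx3cr1* was the 1 gene called lower in the first step (-1.28). The medians of the 4 genes were 1.16 and 0.92. Of 6 tested integrin subunits, 3 were called higher and 1 lower in the first step, with *Itgb3* at 1.58 and *Itga5* at -1.30, and 1 and 2 with library sizes alone. In the second step 3 were called higher, led by *Itgb7* at 1.36, and with library sizes alone 3 were called higher and 1 lower. The medians of the subunits were 0.61 and 0.57. With the UMIs of the 3 libraries added, *Itgb3*, *Itga5* and *Itgb7* did not exceed 2.68, 4.28 and 1.62 CPM in any band, and *Cx3cr1* did not exceed 1.70 CPM. Their folds thus rest on low counts. *Itgb7* had 164 UMIs in young, 29 in control and 34 in old. Of 13 selectins, selectin ligands and their glycosylation enzymes, 2 were called higher and 2 lower in the first step, with *Cd44* at 1.247 and *St3gal3* at -1.68, and 1 and 6 with library sizes alone. With TMM factors both counts are a smaller share of the 13 genes than the 24.5% and 24.6% of all genes, and the median was 0.12. In the second step 5 were called higher and 1 lower, with *St3gal6* at 4.66 and *Spn* at -0.62 (median 0.59), and 4 and 2 with library sizes alone. *St3gal6* adds sialic acid, and its level over the 3 libraries went from 0.253 CPM in band 3 to 6.28 CPM in band 5.

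Of 15 ligands 7 were tested, among which 4 were called higher and 2 lower in the first step, with *Selp* at 2.16 and *Icam2* at -2.13, and 2 higher and 0 lower in the second, led by *Cxcl2* at 4.95. With library sizes alone these counts were 1 and 2, then 2 and 1. The medians of the ligands were 0.86 and 0.68. With the UMIs of the 3 libraries added, *Selp* had 0.466 CPM in band 1 and 1.43 CPM in band 3. *Cxcl2* had 0.298 CPM in band 3 and 9.71 CPM in band 5, so the folds of both rest on low counts. *Cxcl12*, the ligand of CXCR4, lay at 0.00932 to 0.540 CPM in the banded cells of the 3 libraries. Of 14 tested cytokine receptors and signalling genes, 6 were called higher and 3 lower in the first step, with *Csf2rb2* at 2.03 and *Kit* at -1.48, and 1 and 3 with library sizes alone. In the second step 9 were called higher and 0 lower, led by *Socs3*, an inhibitor of G-CSF signalling, at 3.45, and 4 with library sizes alone. The medians of this list were 0.51 and 0.67. With the UMIs of the 3 libraries added, *Csf2rb2* had 1.18 CPM in band 1 and 3.30 CPM in band 3, so its fold rests on low counts. Between the libraries, *Ccr1* had the same order as *Cxcr2*, since it had 49.96, 21.5 and 93.2 CPM in control, young and old. With the UMIs of the 3 libraries added, *Ccr1* went from 9.04 CPM in band 1 to 219 CPM in band 5. Old held 643 cells of band 1 and 1030 of band 5, beside 1261 and 201 in control. These levels thus also depend on the mix of libraries. The pooled order of *Ccr1* also depends on the spread of cells over the bands, and it was not compared between libraries within bands.

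For each of the 9 genes, the genes most like it over the 15 sums of 3 libraries and 5 bands were found among 2841 genes with at least 50 CPM in any sum, by Pearson's r of log2(CPM + 1). The 15 sums share libraries and bands, so r describes likeness only. *Cxcr4* was closest to *Mob1a* (r = 0.95), *Igf1r* (0.942) and *Ppp3ca* (0.924), and *Cxcr2* to *Litaf* (0.985), *Pilra* (0.981) and *Ndel1* (0.980). The pairs of the integrins had other neighbours, *Itgam* being closest to *Lasp1* (0.988), *Flna* (0.983) and *Samd9l* (0.980), and *Itgb2* to *Sh3bgrl3* (0.982), *Slfn2* (0.981) and *Triobp* (0.981). *Itga4* was closest to *Gstp1* (0.965), *Sbds* (0.961) and *Impa2* (0.953), and *Itgb1* to *Cbx1* (0.989), *Gm26699* (0.988) and *Lyl1* (0.985). *Vcam1* was closest to *Mcee* (0.986), *Rnaset2a* (0.984) and *Rsbn1* (0.984). *Selplg* was closest to *Rit1* (0.974), *Dusp1* (0.971) and *Arg2* (0.966), and *Csf3r* to *Fxyd5* (0.980), *Lsm10* (0.930) and *Ccdc12* (0.918). Among the 9 genes themselves, *Cxcr2* had r = 0.87 with *Itgb2* and -0.95 with *Itgb1*, whereas *Cxcr4* had no r above 0.48 or below -0.12 with any of the others.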

How the data were processed

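The 3 libraries of CD133+ bone marrow cells were made with the 10x Chromium single-cell 3′ kit. Using Cell Ranger 2.1.0 with STAR on build mm10, the authors made and deposited a matrix of whole UMI counts per library, without normalization. Each group is 1 library. Whether strand was used in counting is not given in the sources used here.

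Cells with fewer than 200 genes, over 20% mitochondrial UMIs or a UMI count outside the 5th to 95th percentile of all 3 libraries together (3647.35 to 19252.6) were removed (1049 control, 906 young and 1035 old cells). The removed cells had a median of 3398 UMIs in control, 3319 in young and 21175 in old. That median thus lay below the lower limit in control and young and above the upper limit in old. Sums without trimming were among the alternatives. Cells with at least 3 markers of one other lineage, and cells high in both *Mpo* and *Retnlg* plus *Mmp8* (108 control, 477 young and 616 old), were left out of the bands. No doublet caller was run, since the methods name no such step, so doublets can lie within the bands. Libraries shared between 120 and 161 barcode sequences.

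UMIs were summed over the 15 sets of cells (3 libraries by 5 bands) and tested with edgeR 4.0.16 (filterByExpr, TMM, quasi-likelihood, library as a term) over 10588 genes, with Benjamini-Hochberg adjusted p. Between libraries, ratios of summed CPM carry exact conditional binomial intervals, and genes at 10 CPM or more in one of both were counted past 1.5 times. PCR copies, mice and cells are not modelled by these intervals, which cover counting error only. A count of 0 allows up to 3 UMIs. DESeq2 1.42.0, other scalings, filters and band limits were alternatives. Scripts were tested on simulated data with known changes. Positions are from GENCODE M21 (27645 of 27998 identifiers matched) and promoters from RefSeq GRCm38.p6. Sums and figures were made in Python 3.11.15 (scipy 1.17.1, numpy 2.4.6, matplotlib 3.10.9, pandas 2.3.3), and tests in R 4.3.3. The 9 genes and the pathway and marker lists were chosen with earlier results of these data known. The genes named beyond these are, from each list, the called genes with the largest rise and fall, and the 3 genes nearest in pattern to each of the 9.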

Additional observations from a re-analysis of the deposited data

Results flagged for a closer look

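The CPM of *Cxcr4* and *Selplg* changed in opposite directions in different libraries between the same bands, with each interval on its own side of 0. From band 1 to band 5 the log2 ratio of *Cxcr4* was -0.38 in old, 0.73 in control and 0.81 in young. From band 1 to band 3 the log2 ratio of *Selplg* was -0.38 in young, 0.19 in control and 0.36 in old. Each library is 1 pool of mice, so the differences between libraries were not tested. These ratios are of CPM, and the median gene falls on that scale from band to band, as given above. The median fall was 0.56 from band 1 to band 3, more than the 0.38 of *Selplg* in young, and 0.40 from band 3 to band 5. Ratios within a library were not computed with TMM factors, so whether the opposite signs hold on that scale is not known. Of the 9 genes, no other had intervals on opposite sides of 0 between bands 1 and 3, 3 and 5 or 1 and 5.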

How the results depend on the processing

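The counts of genes called between bands stayed within 1.5 times of the main counts under every alternative run: 5 to 7 from band 1 to band 3 (main 6) and 6 to 8 from band 3 to band 5 (main 8). With 1 library left out in turn they were 5 to 6 and 7 to 8. Over single genes and alternatives, 271 values stayed called or stayed uncalled, 13 were no longer called and 4 became called. All 17 of the latter belong to *Selplg*, *Cxcr4*, *Itgb1*, *Csf3r*, *Itgb2* or *Vcam1*. No value that was called in the main or the alternative run changed sign. Values called in neither run could change sign and are among the 271. *Cxcr4* from band 1 to band 3, for example, went from 0.55 to -0.05 with library sizes alone. A limit of 20 for *Retnlg* plus *Mmp8*, added after seeing the data, gave 6 and 8. Over all genes, the 4078 calls from band 3 to band 5 fell to 2471 without the old library.

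Counts between libraries moved more. Of the genes past 1.5 times, old over control had 4, with bands weighted equally 2, with a minimum of 50 CPM 2 and with a limit of 2 times 2. Old against both 3-month libraries had 4, and 2, 2 and 1 under the same alternatives. Control over young had 2, but 5 with a lower limit of size, 0 with a limit of 2 times, and 1 with TMM-scaled CPM, with bands weighted equally, with other lineages set aside at 2 markers, without trimming or with cells thinned to 3000 UMIs. Old over young stayed within 1.5 times of 5. The ratio of *Selplg*, old over young, turned to -0.10 with other lineages kept. Fewer cells, genes or a stricter limit are part of some of these alternatives, and the cause was not tested otherwise. No paired analysis was possible because the labels give each group 1 sample and no replicate numbers. Low counts limit *Itga4*, *Itgb1* and *Vcam1* in band 5, where control had 201 cells.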
